A study of Homo sapiens with 3 samples.

Results

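ATP-dependent chromatin remodelers were followed in TOV21G cells, a human line from an ovarian clear cell carcinoma whose ARID1A gene is mutated in every library. The members were 40 genes listed by family: 25 subunits of the SWI/SNF complexes, 5 genes of the ISWI complexes, 6 CHD genes, 3 ATPases of the INO80 family and HELLS. Each was taken from the table by its symbol, and all 40 were found in 1 row each, of 57736 gene rows. RNA was measured by sequencing in 1 library of wild-type cells (WT) and in 2 libraries of cells transduced with a lentivirus that carries a short hairpin RNA against HDAC2, a class I histone deacetylase. The knockdown libraries carried a different hairpin each, called shRNA 1 and shRNA 2. The labels do not say if a control virus was given to the WT cells, so knockdown and transduction cannot be told apart here. The labels do not say that the libraries came from separate cultures. With 1 WT library, the p-values rest on the spread between the 2 knockdown libraries and on a spread learned over all genes. They measure no spread among WT cells or between cultures.

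Remodelers use ATP to slide, eject or exchange nucleosomes. The SWI/SNF family works as 3 kinds of complex in human cells, called BAF, PBAF and non-canonical BAF. Each is built on 1 ATPase (SMARCA4 or SMARCA2), with core subunits and some subunits of its own. ARID1A and ARID1B are alternative subunits of BAF, so a cell that has lost ARID1A relies on ARID1B for that position, which is the background to work on ARID1A-mutated ovarian tumours. ISWI enzymes space nucleosomes, CHD enzymes have chromodomains that bind modified histones, and INO80-type enzymes exchange histone variants.

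Levels are given as counts per 1000000 counts of the library (CPM). The libraries held 10138479, 11398791 and 11225492 counts (WT, shRNA 1, shRNA 2). HDAC2 had 105 CPM in WT, 33.4 with shRNA 1 and 51.6 with shRNA 2, or 31.7% and 48.9% of WT (log2 change −1.31 ± 0.20, SE, adjusted p = 4.82e-04 by edgeR's quasi-likelihood test). Of the markers listed for the line, PAX8, a transcription factor of this tumour type, had 2625, 2871 and 1969 counts (WT, shRNA 1, shRNA 2), while NAPSA had 1, 4 and 1 counts and CDH1 6, 12 and 12. RNA of the leukocyte, fibroblast and endothelial markers that were found was at most 13 counts in any library, apart from COL1A1 with 54 to 89. The listed endothelial marker PECAM1 was not found by symbol or gene ID. In bulk RNA, fewer cells with a transcript and less of it per cell cannot be told apart.

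Few remodeler genes were called between knockdown and WT cells. Of 39 members with enough counts to be tested, CHD1 and SMARCA1 rose and ARID1B fell (edgeR's quasi-likelihood test, Benjamini-Hochberg adjusted p below 0.05 over 14524 genes). Over all genes tested, 7.72% passed, 3.96% higher and 3.76% lower, so 3 of 39, with 2 higher and 1 lower, is near the background. Another 5 members had an unadjusted p below 0.05 without passing the adjusted test. They were ARID1A, SMARCB1, BCL7C and SRCAP, with lower levels in knockdown cells, and SMARCA5, with a higher level. The background at this unadjusted threshold was 11.1% lower and 12.4% higher. For 37 of the 39, the 95% interval of the log2 change lay within a 2-fold change in either direction, and the other two were CHD1 and the sparsely counted DPF1. Both hairpin libraries lay below WT for 20 members, above it for 12 and on either side of it for 7, where the background was 39.3% below and 39.9% above. The median log2 change of the 39 was −0.11, beside 0.01 over all genes.

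**Figure D1:**
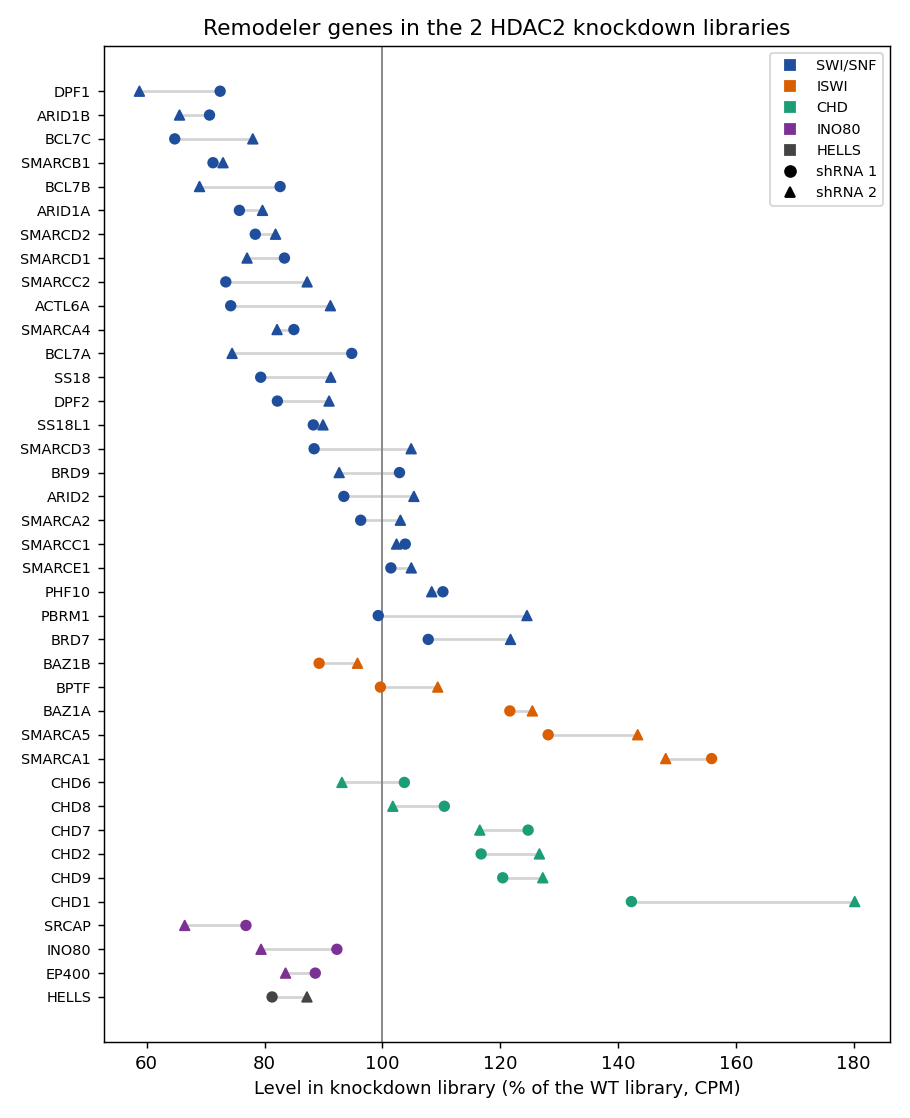
Level of each tested remodeler gene in the shRNA 1 (circles) and shRNA 2 (triangles) library, as a percentage of the single WT library (vertical line at 100%, CPM), grouped by family. SWI/SNF and INO80 genes mostly lie to the left of the line and ISWI and CHD genes to the right, with CHD1 farthest, at 142% and 180%.

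The families lay on different sides of WT, by amounts that were mostly under the test's threshold. The median log2 change was −0.23 for 24 SWI/SNF genes, 0.31 for 5 ISWI genes, 0.28 for 6 CHD genes and −0.22 for the 3 INO80-family ATPases. Of the SWI/SNF genes, 15 were below WT with both hairpins and 4 above. All 3 INO80-family genes were below WT with both hairpins, and 5 of the 6 CHD genes and 3 of the 5 ISWI genes were above. Over all genes tested, 39.3% were below with both and 39.9% above. By GC content of the transcript, the share below was 11.8% at or under 40% GC, 49.2% from 50% to 55% and 68.8% above 60%. The family values are counts and medians, and the difference between families was not tested.

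Among the subunits that define BAF, ARID1B fell. ARID1B (ENSG00000049618), the paralog that can fill the place of ARID1A, had 123 CPM in WT, 86.6 with shRNA 1 and 80.4 with shRNA 2. Both knockdown levels were below WT, and they lay closer to each other than to it. The log2 change was −0.55 ± 0.17 (SE), to 0.681 of WT (adjusted p = 0.0477 by edgeR's quasi-likelihood test). The call is marginal, as the adjusted p was 0.0536 with DESeq2 size factors and 0.212 once the trend with transcript GC content was removed, and ranged from 0.0358 to 0.468 over 11 alternatives. The gene lies on chromosome 6 from 156776020 to 157210779 (GRCh38, GENCODE 29).

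ARID1A itself, which binds DNA through its AT-rich interaction domain, had 55.2 CPM in WT, 41.8 with shRNA 1 and 44.0 with shRNA 2. Its levels were 75.7% and 79.7% of WT, and the log2 change of −0.36 (95% interval −0.73 to −0.00) did not pass (adjusted p = 0.212). RNA levels say nothing of the ARID1A mutation, which all 3 libraries share. Of the DPF genes, whose products read histone marks through paired PHD fingers, DPF2 was the one with substantial counts, at 91.3, 75.0 and 83.0 CPM in WT, shRNA 1 and shRNA 2 (log2 change −0.21 ± 0.17, SE). DPF1 had 12, 10 and 8 counts. DPF3 had 4, 3 and 1 counts and was the member left untested. Levels that low support no direction.

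Of the 2 SWI/SNF ATPases, one had high and the other low counts. SMARCA4, also called BRG1, had 181, 154 and 148 CPM in WT, shRNA 1 and shRNA 2, which put both knockdown libraries below WT (log2 change −0.26 ± 0.17, SE, adjusted p = 0.380 by edgeR's quasi-likelihood test). SMARCA2, also called BRM, had 13.0, 12.6 and 13.4 CPM, and the knockdown libraries lay on either side of WT. The log2 change of SMARCA4 was 0.02, with the sign reversed, once the GC trend was removed.

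The 4 members particular to PBAF, and BRD9 of non-canonical BAF, stood near or above WT. With the GC trend removed, the median log2 change of the 4 PBAF genes went from 0.15 to −0.14. PBRM1, which carries several bromodomains, had 77.8 CPM in WT, 77.2 with shRNA 1 and 96.8 with shRNA 2, so that the higher value came from 1 hairpin. BRD7, a bromodomain protein, had 52.4, 56.4 and 63.8 CPM, and PHF10, which carries PHD fingers, had 85.7, 94.5 and 92.9. Both were above WT with both hairpins, and neither passed, at log2 changes of 0.20 ± 0.18 and 0.13 ± 0.17 (SE). BRD7 shares 44.5% of its 75-base sequences with other genes, among them ADCY7 and BRD7 pseudogenes, and is uncertain. ARID2, the counterpart of ARID1A in PBAF, had 79.2, 73.98 and 83.4 CPM, and BRD9 of non-canonical BAF had 41.0, 42.2 and 38.0. Each of these had 1 hairpin above and 1 below WT.

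Of the 7 core genes, 4 were below WT with both hairpins, 2 above and 1 on either side, and none passed. The lowest was SMARCB1, the subunit lost in rhabdoid tumours, with 194 CPM in WT against 139 and 142 with shRNA 1 and shRNA 2. The hairpin libraries differed from each other by far less than from WT, yet the log2 change of −0.47 (95% interval −0.82 to −0.12) had an adjusted p of 0.0902. SMARCD1, SMARCD2 and SMARCC2, a pair of related linker subunits and a scaffold subunit, stood at 0.802, 0.802 and 0.803 of WT. Their adjusted p values were between 0.264 and 0.286. The scaffold SMARCC1 and the DNA-binding SMARCE1 stood at 1.03 of WT each, with both hairpins slightly above WT. SMARCD3 had 18.0, 15.9 and 18.8 CPM, on either side of WT.

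The 6 genes of the ATPase module were all below WT with both hairpins, where the share over all genes was 39.3%, and none passed. Their transcripts had between 42.5% and 64.3% GC, and in the GC classes over that range the share over all genes ran from 20.8% to 68.8%. With the GC trend removed, the median log2 change of the 6 genes went from −0.26 to −0.17. The module joins the actin-like ACTL6A, the BCL7 proteins and SS18 or SS18L1 to the ATPase. BCL7C had 71.5 CPM in WT, 46.3 with shRNA 1 and 55.8 with shRNA 2, a log2 change of −0.49 (95% interval −0.85 to −0.12, adjusted p = 0.0965). BCL7B stood at 0.758 of WT, BCL7A at 0.847, SS18 at 0.853, ACTL6A at 0.827 and SS18L1 at 0.891. BCL7A stood at 94.8% of WT with shRNA 1 and 74.5% with shRNA 2, and ACTL6A at 74.3% and 91.2%, so the hairpin with the lower value was not the same.

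In the ISWI family the ATPase SMARCA1 rose. SMARCA1 (ENSG00000102038), also called SNF2L, had 62.4 CPM in WT, 97.3 with shRNA 1 and 92.4 with shRNA 2. The knockdown libraries were close to each other and both well above WT, at a log2 change of 0.60 ± 0.18 (SE), 1.52-fold (adjusted p = 0.0385). The gene lies on chromosome X from 129446501 to 129523500 (GRCh38, GENCODE 29). Its log2 change was 0.34 after removal of the GC trend, and the call was lost (adjusted p = 0.319, in a range of 0.0180 to 0.468 over 11 alternatives). SMARCA5, also called SNF2H and the partner of most ISWI regulatory subunits, had 81.6, 105 and 117 CPM. Both hairpins were above WT, and its log2 change of 0.44 (95% interval 0.07 to 0.81) did not pass (adjusted p = 0.133). SMARCA1 shares none of its 75-base sequences with other genes, and SMARCA5 shares 11.9%, with an antisense transcript among them.

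None of the ISWI partner subunits passed. BAZ1A, the partner of SMARCA5 in the ACF complex, had 49.1, 59.7 and 61.6 CPM, at 1.24-fold of WT with both hairpins above it. BAZ1B, the partner in the WICH complex, had 144, 128 and 138 CPM, below WT with both. BPTF, the large subunit of NURF, had 121, 121 and 133 CPM, with shRNA 1 at 99.7% of WT and shRNA 2 at 109%.

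CHD1 showed the largest change of any member that passed the test. CHD1 (ENSG00000153922), which binds trimethylated histone tails at active promoters, had 52.4 CPM in WT, 74.5 with shRNA 1 and 94.4 with shRNA 2. Both knockdown levels were above WT, and shRNA 2 lay above shRNA 1. The log2 change was 0.69 ± 0.19 (SE), 1.61-fold (adjusted p = 0.0300), and 0.51 and 0.85 for shRNA 1 and shRNA 2 alone. With the GC trend removed it was 0.38 and the call was lost (adjusted p = 0.309, in a range of 0.0100 to 0.468 over 11 alternatives). The gene lies on chromosome 5 from 98853985 to 98928957 (GRCh38, GENCODE 29).

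The other CHD genes did not pass. CHD2, the closest relative of CHD1, had 53.3, 62.2 and 67.5 CPM (1.22-fold), CHD9 had 53.2, 64.04 and 67.7 CPM (1.24-fold), and CHD7, the gene of CHARGE syndrome, had 26.8, 33.4 and 31.2 CPM (1.21-fold). These 3 were above WT with both hairpins, with 95% intervals that reached below 0. CHD8, a gene linked to autism, had 70.7, 78.2 and 71.99 CPM, slightly above WT with both. CHD6 had 56.7, 58.8 and 52.8 CPM, on either side of WT.

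The INO80-family ATPases were lower with both hairpins without passing. SRCAP, which deposits a histone variant at promoters, had 96.6 CPM in WT, 74.2 with shRNA 1 and 64.2 with shRNA 2, a log2 change of −0.48 (95% interval −0.84 to −0.12, adjusted p = 0.0909). SRCAP shares 74.1% of its 75-base sequences with other annotated genes that overlap it on the same strand, and its counts are uncertain. EP400, the ATPase of the TIP60 acetyltransferase complex, stood at 0.861 of WT and INO80 at 0.858. INO80 was nearer to WT with shRNA 1, at 92.3%, than with shRNA 2, at 79.4%.

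HELLS, a remodeler that helps to maintain DNA methylation in dividing cells and works with CDCA7, was set beside 16 genes of replication and the cell cycle. HELLS had 112 CPM in WT, 91.2 with shRNA 1 and 97.8 with shRNA 2. Both hairpins were below WT, at 81.3% and 87.2%, and the log2 change of −0.25 (95% interval −0.60 to 0.11) did not pass (adjusted p = 0.404). Of the 16 genes, 13 fell and 0 rose, against 3.76% falling over all genes, with a median log2 change of −0.93. The list was chosen with earlier results of these data known, so this count only describes it. The replication licensing genes CDT1 and MCM5 showed the largest changes, to 0.357 and 0.416 of WT. CDCA7 and TOP2A showed the smallest. CDCA7 had 129, 121 and 132 CPM, on either side of WT, and TOP2A, the mitotic topoisomerase, had 334, 208 and 296. All these values come from the same 3 libraries, and the difference between HELLS and these genes was not tested.

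With the GC trend removed, the log2 change of HELLS was −0.57, and the median of the 16 genes was −0.83. The adjusted p of HELLS was then 0.0925, and 0.0325 with a robust curve in place of the least-squares one, in a range of 0.0325 to 0.653 over 11 alternatives. HELLS has one of the AT-richest transcripts among the members, with 37.6% GC.

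The promoter of HELLS carried the letters of an E2F-type motif, as did most of the matched genes listed beside it. The words TTTCCCGC, TTTCGCGC, TTTGCCGC and TTTGGCGC were searched on both strands in windows from 250 bases before to 50 after the start (RefSeq, GRCh38.p14). Their overlap with other motifs was not searched. Of 27305 promoters, 3.33% held at least 1 of them, as did 11 of 14 matched genes of the replication and cell cycle list, the exceptions being MKI67, RRM2 and TOP2A. Of 32 matched members, 2 did, HELLS and BRD7. CDCA7, whose level did not pass, also held 1. Every word contains the letters CG, and the 3.33% is not matched for them. The median window held CG 14 times over all promoters, 33.5 times in the replication and cell cycle list and 31 times in the members. The windows of HELLS (chr10:94545538-94545837, plus strand) and of CDT1 (chr16:88803539-88803838, plus strand) are shown because both hold such words while their log2 changes were −0.25 and −1.49, with the words in capitals:
HELLS: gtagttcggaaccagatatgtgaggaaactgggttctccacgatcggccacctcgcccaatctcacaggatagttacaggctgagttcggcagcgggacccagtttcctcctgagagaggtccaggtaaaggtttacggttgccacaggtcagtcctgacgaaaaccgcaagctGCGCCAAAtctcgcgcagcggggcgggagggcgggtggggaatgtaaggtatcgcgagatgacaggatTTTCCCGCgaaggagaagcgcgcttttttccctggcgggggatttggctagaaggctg
CDT1: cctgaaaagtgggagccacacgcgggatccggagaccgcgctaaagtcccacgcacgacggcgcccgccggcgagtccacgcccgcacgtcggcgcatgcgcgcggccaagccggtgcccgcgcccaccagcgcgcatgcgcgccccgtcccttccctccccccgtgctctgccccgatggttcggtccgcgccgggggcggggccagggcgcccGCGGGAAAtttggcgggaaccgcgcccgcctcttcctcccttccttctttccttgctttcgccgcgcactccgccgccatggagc
The HELLS window held 2 words, 1 on each strand, and the CDT1 window 1. A match of letters is a description of the window, not of a factor bound there.

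**Figure D2:**
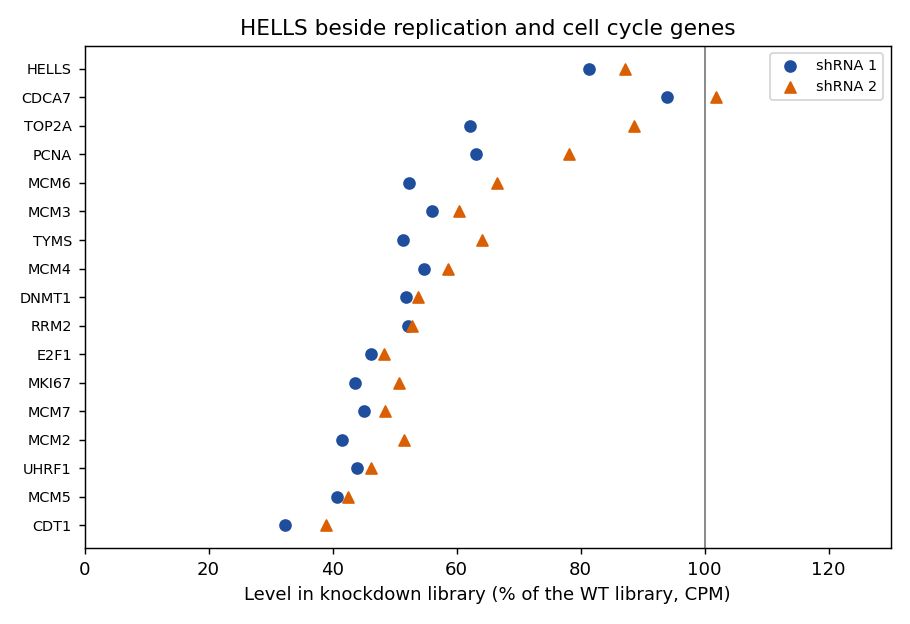
Level of HELLS (top) and of the 16 replication and cell cycle genes in the shRNA 1 (circles) and shRNA 2 (triangles) library, as a percentage of the single WT library (vertical line at 100%, CPM). HELLS lies at 81.3% and 87.2%, whereas CDT1, at the bottom, lies at 32.3% and 39.0%.

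Other remodeler subunits that are not among the 40 showed the same small number of calls. Of 48 tested genes of the same and related complexes, 2 rose and 1 fell, beside the background of 3.96% and 3.76%, with a median log2 change of −0.08. ATRX, a remodeler of heterochromatin and telomeres, had 47.6 CPM in WT, 85.2 with shRNA 1 and 85.3 with shRNA 2. Its log2 change was 0.84 ± 0.18 (SE, adjusted p = 0.00581 by edgeR's quasi-likelihood test). SMARCAD1, a relative of the INO80 enzymes, rose 1.56-fold, and RUVBL2, an AAA ATPase of the INO80, SRCAP and TIP60 complexes, fell to 0.634 of WT. All 3 lost their calls with the GC trend removed, at log2 changes of 0.49, 0.26 and −0.39.

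The log2 changes were lower for remodeler genes with a higher GC content of the transcript. Over all genes tested, the median log2 change was 0.34 for transcripts of at most 40% GC and −0.29 above 60% GC. All 17 tested members with over 50% GC had a negative log2 change, as did 4397 of 6110 genes over the whole table. Of the 15 members at or under 45% GC, 10 had a positive one and 5 a negative one, against 24.6% negative over all genes. Across the 39 members, Pearson's r between log2 change and GC content was −0.76 and Spearman's rho −0.77, against −0.33 and −0.48 across 14124 genes. These describe genes of the same 3 libraries, which are not independent replicates. The median GC content was 53.5% for the SWI/SNF genes, 41.0% for the ISWI genes and 47.0% for the CHD genes. Transcripts of the members were also long, with a median of 6102 bases against 3427 over all genes, and the median log2 change of all genes was 0.15 above 8000 bases.

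**Figure D3:**
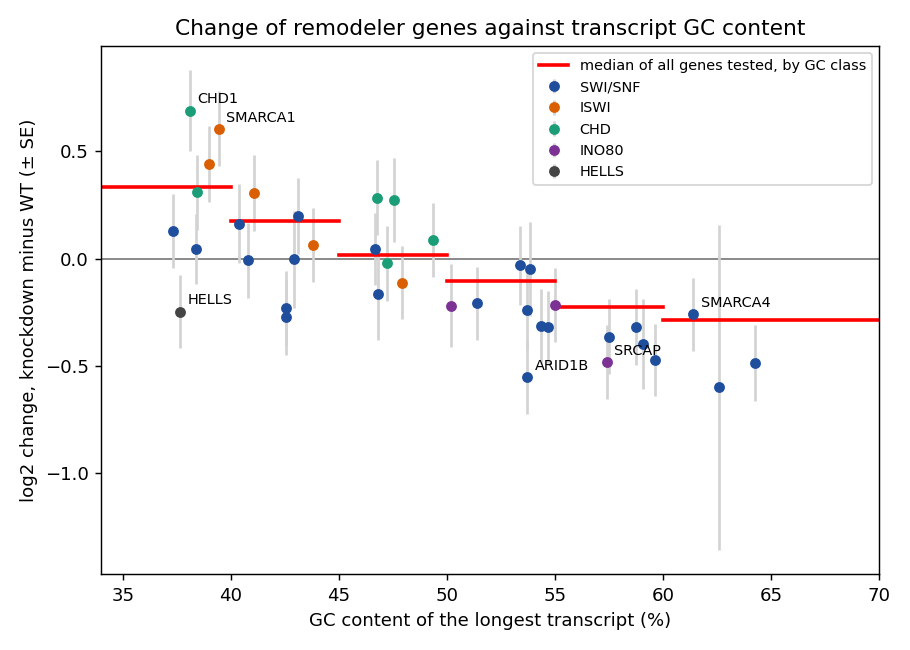
Log2 change (knockdown minus WT, ± SE) of the 39 tested members against the GC content of the longest transcript (%), coloured by family, with the median of all genes tested in each GC class as red lines (the outer classes are open-ended). CHD1 and SMARCA1 lie at the upper left and most SWI/SNF genes at the lower right, while HELLS lies below the line of its class.

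With the GC trend removed, 0 of the 39 members passed edgeR's quasi-likelihood test, beside a background of 0.633% higher and 0.998% lower, and 4 had an unadjusted p below 0.05. DESeq2's Wald test also called 0, with 5 at an unadjusted p below 0.05. After the GC removal, the median log2 changes were −0.15 for SWI/SNF, 0.09 for ISWI, 0.19 for CHD and −0.16 for INO80-family genes. The family medians lay closer together than without the removal. The 4 PBAF genes went from a median of 0.15 to −0.14. ARID1B kept a change of −0.40, and ACTL6A and SS18, with AT-rich transcripts, went from −0.27 and −0.23 to −0.43 and −0.39. The GC content of the transcripts moved with the result in these libraries, and its part in the result was not tested.

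**Figure D4:**
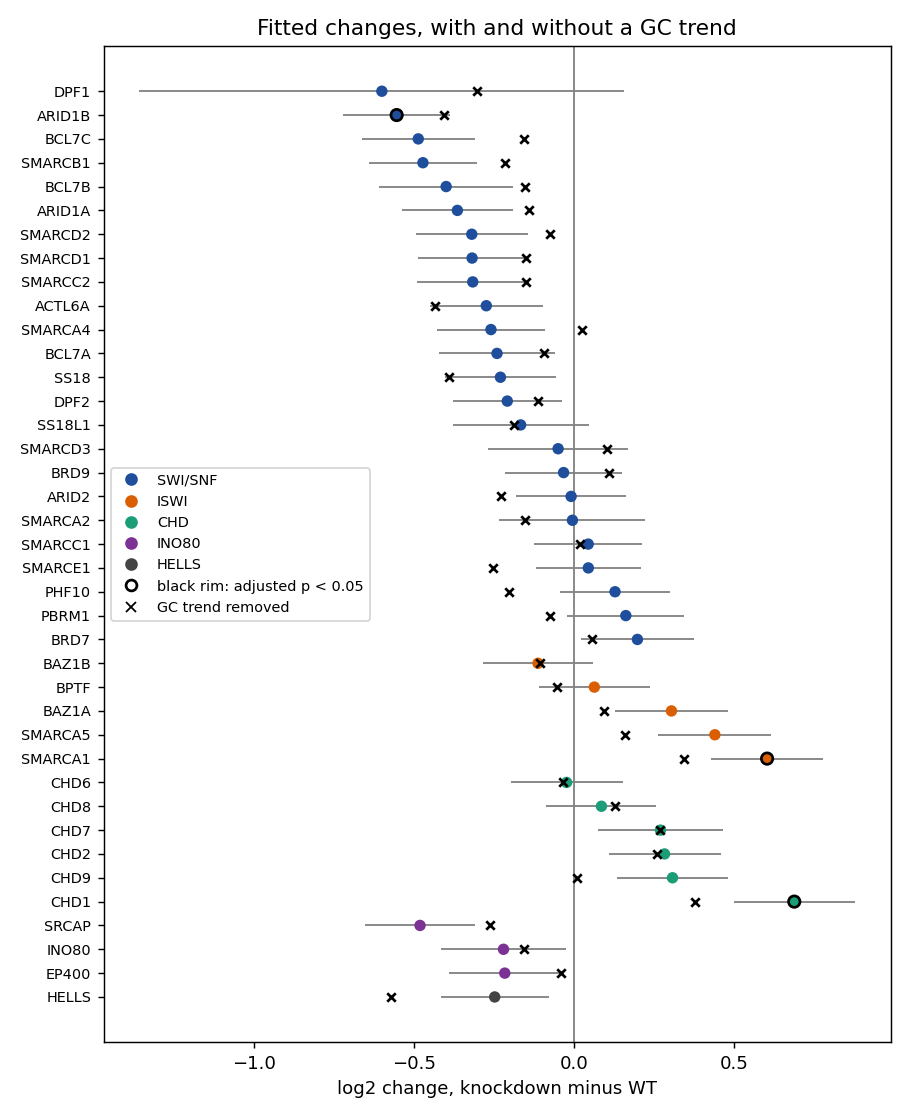
Fitted log2 change (knockdown minus WT) of the 39 tested members with its SE as bars, coloured by family, beside the value with the GC trend removed (crosses). Black rims mark CHD1, SMARCA1 and ARID1B, whose adjusted p was below 0.05, and their crosses lie nearer to 0, while the cross of HELLS lies farther from it.

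The hairpins differed little from each other across the remodelers. No tested member differed by 1.5-fold or more between shRNA 2 and shRNA 1, whereas 5.05% of all genes were higher by that much and 5.73% lower. This comparison of single libraries has no test. The members had a median of 705 counts in WT against 218 over all genes tested, so the shares are not matched for depth. The median log2 difference of shRNA 2 from shRNA 1 was 0.05. CHD1, PBRM1 and ACTL6A were the highest in shRNA 2 relative to shRNA 1, at 0.34, 0.33 and 0.30, and BCL7A, BCL7B and DPF1 the lowest, at −0.35, −0.26 and −0.25. DPF1 is sparsely counted, so its value supports no direction. HDAC2 was itself lower with shRNA 1 than with shRNA 2.

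Levels of related subunits were compared per length, as CPM per kilobase of the longest annotated transcript. SMARCA4 had 31.2, 26.5 and 25.6 CPM per kilobase in WT, shRNA 1 and shRNA 2, and SMARCA2 1.85, 1.78 and 1.90, so SMARCA4 was the higher ATPase in every library. ARID1B was above ARID1A in all 3, with 11.3, 8.01 and 7.43 CPM per kilobase against 6.43, 4.87 and 5.12. The ratio of ARID1A to ARID1B was 0.567 in WT and 0.608 and 0.689 with shRNA 1 and shRNA 2. SMARCC1 was 1.67 times SMARCC2 in WT, and SMARCD1 was 3.33 times SMARCD2, which was 2.58 times SMARCD3. SS18 was 11.2 times SS18L1, DPF2 36.9 times DPF1 and BCL7C 2.23 times BCL7B. DPF1 had only 12 counts in WT, so the ratio of DPF2 to it is uncertain. BCL7B and BCL7A differed little, at a ratio of 1.25. SMARCA5 was below SMARCA1 per length, at a ratio of 0.708 in WT. That order turned to 9.75 when the median transcript length was used, since the SMARCA5 gene has short annotated transcripts, so these 2 cannot be ranked. The order of the other pairs was the same with either length, but several ratios in WT moved by more than 1.5 times. SMARCA4 over SMARCA2 went from 16.9 to 2.81, DPF2 over DPF1 from 36.9 to 94.6, SMARCC1 over SMARCC2 from 1.67 to 3.72, SMARCD1 over SMARCD2 from 3.33 to 5.42 and BCL7C over BCL7B from 2.23 to 1.47.

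**Figure D5:**
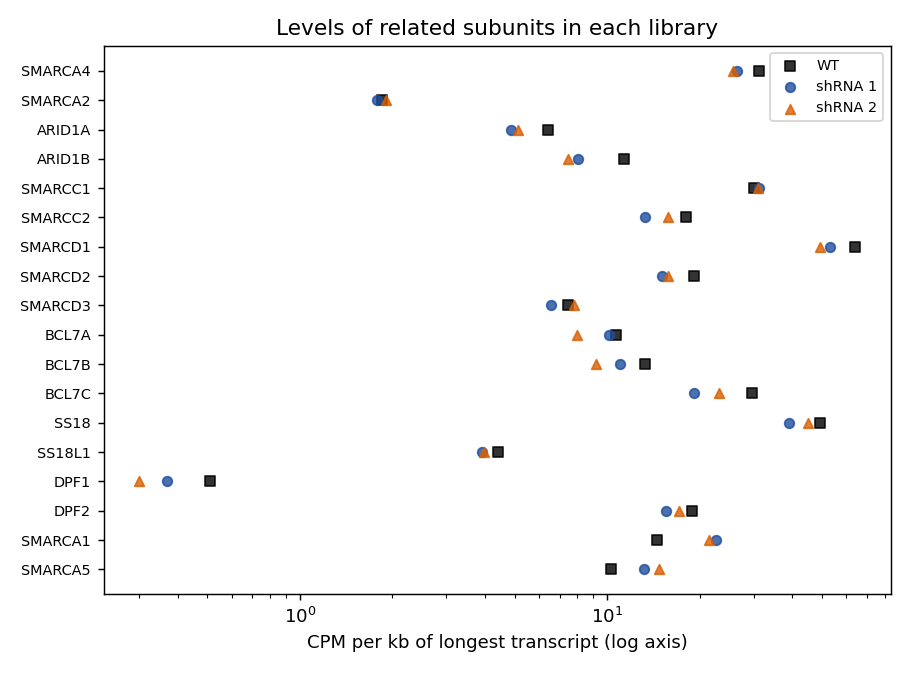
Level of related SWI/SNF and ISWI subunits in WT (squares), shRNA 1 (circles) and shRNA 2 (triangles), as CPM per kilobase of the longest transcript, on a log axis. SMARCA4 lies far above SMARCA2, ARID1B lies above ARID1A in every library, and DPF1 is the lowest gene shown.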

How the data were processed

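Estimated counts were deposited by the authors, 1 column per library and 1 row per Ensembl gene, in which rounding to whole numbers changed 0 values. RSEM 1.2.3, edgeR and hg19 are named in the submitters' processing notes, without the step each did. The use of strand in counting is not stated in the labels, and 0 other columns of sample values were in the table. ScriptSeq libraries from total RNA were sequenced in 75-base runs, per the labels' protocols.

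The 39 tested members were read from 1 fit over 14524 genes: edgeR's quasi-likelihood test (edgeR 4.0.16, R 4.3.3, DESeq2 1.42.0 as an alternative), TMM scaling, filterByExpr, Benjamini-Hochberg adjustment and a threshold of 0.05. The fit had 1 residual degree of freedom and a prior of 18.9 learned over all genes, so a single WT library is taken to be as variable as the knockdown pair. In simulated data on 14524 genes, recovery was 4.5% for 1.5-fold, 61.2% for 2-fold and 93.9% for 4-fold changes. The simulation held 67, 67 and 66 genes with these changes and a common dispersion for all genes. In the data 1121 genes were called, so the adjusted threshold was not the same, and these shares do not give the recovery of the test used here. Changes of single hairpins are differences of log2 CPM with a prior count of 2. CPM values use TMM-scaled library sizes, and a limit of 3 counts equalled 0.301, 0.262 and 0.265 CPM (WT, shRNA 1, shRNA 2), counting error only.

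Transcript length, GC content (known for 97.2% of genes tested) and shared 75-base sequences came from GENCODE 29 (GRCh38), not the hg19 annotation. A GC or length trend was removed by offsets from a loess curve fitted per library, the robust curve, the length trend and both trends together being chosen after seeing the data. Other scalings, filters and tools were also tried. VPS72 and INO80B carry another symbol in the table and were matched by gene ID. The members and lists were chosen with earlier results of these data known. All members could be named, with fuller values for those that passed or had an unadjusted p below 0.05, ARID1A and the paralogs. Of other subunits, those that passed were named, and of the genes beside HELLS those with the 2 largest and 2 smallest changes. The result of 1 listed marker is not reported here.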

Additional observations from a re-analysis of the deposited data

How the results depend on the processing

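The calls rest on 2 knockdown libraries and 1 WT library. With no filter on low counts, 0 of all genes, 0 members, 0 other remodeler subunits and 0 genes beside HELLS passed edgeR's quasi-likelihood test, although 2486 genes and 3 members had an unadjusted p below 0.05. DESeq2's Wald test called 306 genes, 0 members (5 at an unadjusted p below 0.05) and 1 other subunit. With the GC trend removed, 237 genes, 0 members (4 at an unadjusted p below 0.05), 0 other subunits and 8 genes beside HELLS were called. The robust GC curve, chosen after seeing the data, gave 799 genes, 1 member (HELLS), 0 other subunits and 15 genes beside HELLS, so the number of calls after GC removal depends on the curve. The median prior degrees of freedom were 7.41 with the least-squares curve, 20.3 with the robust one and 18.9 without removal. The length trend removed gave 454 genes, 1 member (ARID1B), 0 other subunits and 11 genes beside HELLS. Both trends removed gave 306 genes, 0 members (7 at an unadjusted p below 0.05), 0 other subunits and 11 genes beside HELLS. These compare with 1121 genes, 3 members, 3 other subunits and 13 genes beside HELLS. The cause was not tested.

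The median log2 change of the members, −0.11, was −0.12 with upper quartile scaling, −0.078 with library size alone, −0.14 with no filter, −0.10 with a mean count of at least 50, −0.10 with the GC trend removed, −0.19 with the length trend removed and −0.15 with both removed. It ranged from −0.12 to −0.11 when either hairpin was left out. A count of calls without a hairpin library was not computed, since 1 library against 1 leaves no residual degrees of freedom. The median level per length, 10.3 CPM per kilobase, was 40.4 with the median transcript length.

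The sign turned for 13 members, none of which passed without these changes. The largest of these log2 changes were 0.31 for CHD9 and −0.26 for SMARCA4. Removal of the GC trend by the least-squares curve, by the robust curve, and together with length gave log2 changes of −0.074, −0.074 and −0.11 for PBRM1, −0.20, −0.20 and −0.19 for PHF10, 0.11, 0.098 and 0.068 for BRD9, 0.11, 0.096 and 0.10 for SMARCD3, −0.25, −0.25 and −0.31 for SMARCE1, and −0.051, −0.060 and −0.17 for BPTF. SMARCA4 was at 0.025 and 0.0093 by the 2 curves. Removal of the length trend alone gave −0.051 for SMARCC1, 0.0085 for SMARCD3, −0.088 for SMARCE1, −0.11 for BPTF and −0.049 for CHD8. Removal of GC and length gave −0.024 for SMARCC1, −0.0012 for CHD8 and −0.065 for CHD9. Scaling by library size alone gave 0.029 for SMARCA2, 0.025 for ARID2, 0.0016 for BRD9 and 0.011 for CHD6. With shRNA 1 alone and with shRNA 2 alone, the values were −0.053 and 0.043 for SMARCA2, −0.097 and 0.075 for ARID2, −0.010 and 0.32 for PBRM1, 0.041 and −0.11 for BRD9, −0.18 and 0.068 for SMARCD3, −0.0047 and 0.13 for BPTF, and 0.053 and −0.10 for CHD6. No paired analysis was possible because WT has 1 library, so the groups share fewer than 2 replicate numbers. At these depths, DPF1 and DPF3 are too sparsely counted for a direction.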
